A study of Mus musculus with 9 samples.

Results

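The semaphorins, plexins, neuropilins, ephrins, Eph receptors, netrins, UNC5 receptors, Slits and Robos are the ligands and receptors of axon guidance, and this account follows their mRNAs in mouse bone marrow-derived macrophages. Genes were taken by name from the deposited table, with Neo1, Rgma and Rgmb, and 71 of its 28379 genes matched. Unc50, a Golgi protein, and Plxna4os1, an antisense RNA of Plxna4, matched by their letters only, which leaves 69 genes of the families. These are 19 semaphorins, 9 plexins, 2 neuropilins, 8 ephrins, 14 Eph receptors, 4 netrins, 4 netrin receptors, 2 repulsive guidance molecules, 3 Slits and 4 Robos. The families and 4 genes put forward for them, Ntn1, Sema7a, Efna2 and Sema4d, were chosen on their levels and fold changes in these same libraries. The values of those 4 genes are therefore given as a description with no test, the counts of members called leave them out, and these counts are a description too.

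The macrophages (BMDMs) were grown from the marrow of adult C57BL/6J mice and kept in macrophage colony-stimulating factor (M-CSF, 20 ng/ml) in every group, for 48 h. One group is labelled PBS, and the study's methods name no solvent control for the vitamins. The RANKL group received RANKL at 100 ng/ml, the cytokine that turns macrophages into bone-resorbing osteoclasts. The same RANKL was given to the RANKL + Vit D + K group together with vitamin D, at 1000 nM, and vitamin K, at 20 μM. The doses are those of the labels, and the study's methods give a higher dose of vitamin K for these libraries. Each group had 3 libraries of poly(A)-selected RNA, with 65915112 to 68229647 counts per library, and it is not stated which cultures or mice stand behind each replicate number, and the study's methods speak of a library made from pooled RNA without saying what was pooled, so that the p-values measure the spread between these samples, which may be technical.

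Guidance ligands and receptors pass signals between neighbouring cells in bone as well as in the nervous system. Semaphorins act through plexins, often with a neuropilin as co-receptor, ephrins and Eph receptors signal in both directions between touching cells, netrins act through DCC, neogenin and UNC5 receptors, and Slits act through Robos. Osteoclasts are known to use Sema4d to restrain osteoblasts, and ephrin-B2 on osteoclasts meets EphB4 on osteoblasts. Netrin-1 from osteoclasts is known to attract sensory nerve fibres into subchondral bone, which is the reason the study followed it.

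Macrophage markers were abundant in every library, with a summed level of 26251 to 30459 FPKM (fragments per length of transcript and size of library) in PBS, 16580 to 24155 in RANKL and 4480 to 11499 in RANKL + Vit D + K. The 10 osteoclast markers summed to 23.6 to 31.8 FPKM in PBS, 488.9 to 1022 in RANKL and 70.4 to 100.4 with the vitamins. Replicate 2 of the vitamin group stood apart from its group, at 61.28 on the first principal component of all genes against 167.4 and 139, and replicate 2 of the RANKL group stood apart on the second, at -87.54 against -50.3 and -40.83. The 7 neutrophil markers summed to 11.1 to 128.0 FPKM in PBS, 11.3 to 147.9 in RANKL and 0.551 to 1.72 with the vitamins, where Camp, Ltf, Elane and Mpo were at 0. Markers of stromal cells summed to 0.428 to 0.462 FPKM in RANKL and 0.0303 to 0.0583 with the vitamins, and those of B cells to 0.423 to 0.795 and 0 to 0.0441, which is the range of many members. Markers of osteoblasts summed to 0.79 to 1.03 FPKM in PBS, 0.766 to 0.799 in RANKL and 1.33 to 1.76 with the vitamins, and those of neurons and glia to 0.0892 to 0.162, 0.0797 to 0.229 and 0.317 to 0.588. Runx2 was the one tested osteoblast marker and was called higher with the vitamins than in RANKL (log2 fold change 1.16, edgeR adjusted p = 0.00442), with Sp7 and Alpl at 0, while none of the 4 tested markers of neurons and glia passed. Col1a1, Pdgfrb, Cd79b and 6 of the 7 neutrophil markers were called lower with the vitamins than in RANKL. The part of these cells in the vitamin results below was not tested.

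The abundant members were plexins, 2 semaphorins and the neuropilins. Over the 9 libraries the mean level was 119 FPKM for Plxna1, 108 for Plxnb2, 77.2 for Plxnd1, 68.5 for Sema4d, 58.0 for Nrp2, 34.7 for Plxnc1, 27.3 for Sema4a and 22.5 for Nrp1. Unc50 followed at 20.2 FPKM, and every other member was at 3.16 FPKM or less. In each library 13 to 19 members reached 1 FPKM and 21 to 29 members were at 0. Plxna1 and Plxnb2, neighbours in this order, changed places between groups: Plxnb2 was the higher of the pair in every PBS and RANKL library and Plxna1 in every vitamin library. Plxnd1 and Sema4d did the same, with Plxnd1 the higher in every PBS and RANKL library and Sema4d in every vitamin library. So did Sema4a and Nrp1, with Nrp1 the higher in every vitamin library only. Enough counts for a test were found for 42 of the 71 members. The 29 others never exceeded 31 counts in a library and include all 4 Robos, the Sema4d receptor Plxnb1 and the bone-protective ligand Sema3a. Robo3, the highest of the Robos by mean FPKM, had 15 counts in PBS replicate 2, 6 in RANKL replicate 1 and 0 in the other libraries.

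**Figure D1:**
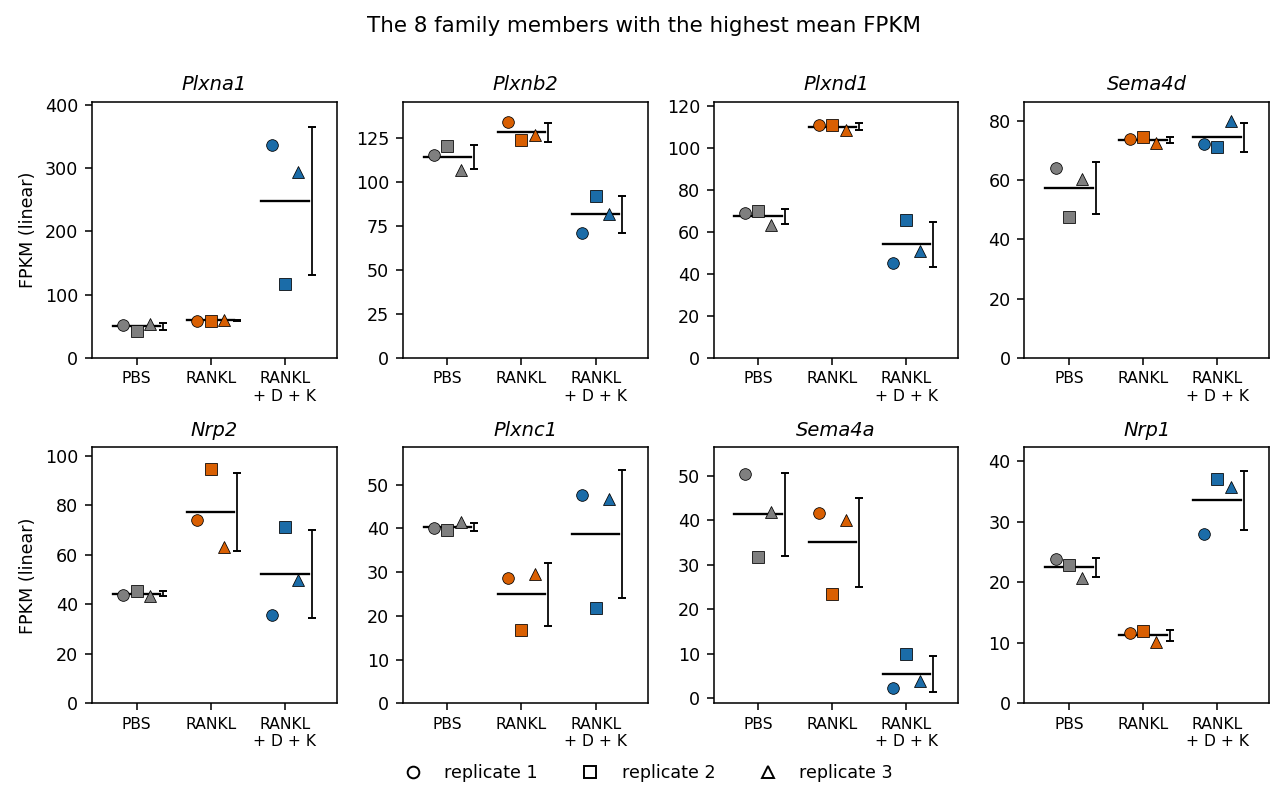
FPKM (linear axis) of the 8 most abundant family members in each of the 9 libraries, with the group mean (line) and SD (bar, n = 3). Nrp1 is lowest and Plxnd1 highest in the 3 RANKL libraries, and Plxna1 reaches 337.5 FPKM in RANKL + Vit D + K against 60.0 at most in RANKL.

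Against PBS, RANKL left most members uncalled, and of the 38 tested members that were not put forward 7 passed the threshold. In edgeR's quasi-likelihood test, with p-values adjusted by Benjamini-Hochberg over all 17002 genes tested, 3 members were higher (Plxna4, Plxna2 and Plxnd1), where 2.35% of all genes tested were called higher. Another 4 members were lower (Slit1, Unc5b, Nrp1 and Sema4b), where 1.26% of all genes were called lower. The remaining 31 did not pass. In bulk RNA of this kind, fewer cells that express a gene and less of its RNA per cell cannot be told apart. The median log2 fold change was -0.35 over these 38 members and -0.043 over all genes tested.

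With the vitamins added to RANKL, 6 members were higher than in RANKL alone (Epha2, Ephb4, Plxna1, Nrp1, Neo1 and Unc5b), beside 16.4% of all genes tested. Another 13 were lower (Epha1, Epha4, Slit1, Efnb1, Ntn3, Plxna4os1, Plxna4, Plxnb2, Plxnb3, Plxnd1, Sema3d, Sema4a and Sema6d), beside 17.2% of all genes. Against PBS, the vitamin group had 6 members higher (Epha2, Nrp1, Plxna1, Plxna2, Plxna4 and Sema3c), beside 19.8% of all genes. Another 18 were lower (Epha1, Epha4, Slit1, Efna1, Efnb1, Ntn3, Plxna4os1, Unc50, Plxna3, Plxnb2, Plxnb3, Plxnd1, Rgmb, Sema4a, Sema4b, Sema4c, Sema6c and Sema6d), beside 21.0% of all genes. The median log2 fold change of the 38 members was -0.57 against RANKL, beside -0.0435 over all genes, and -0.49 against PBS, beside -0.0422. Ephb4 and Sema3d among the calls against RANKL, and Ntn3 and Plxna4os1 among those against PBS, had enough counts for a test only through the group where they were high, so their calls are no support for a difference. The comparisons share libraries: the same 3 RANKL libraries serve as the treated group of one and the reference of the other.

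**Figure D2:**
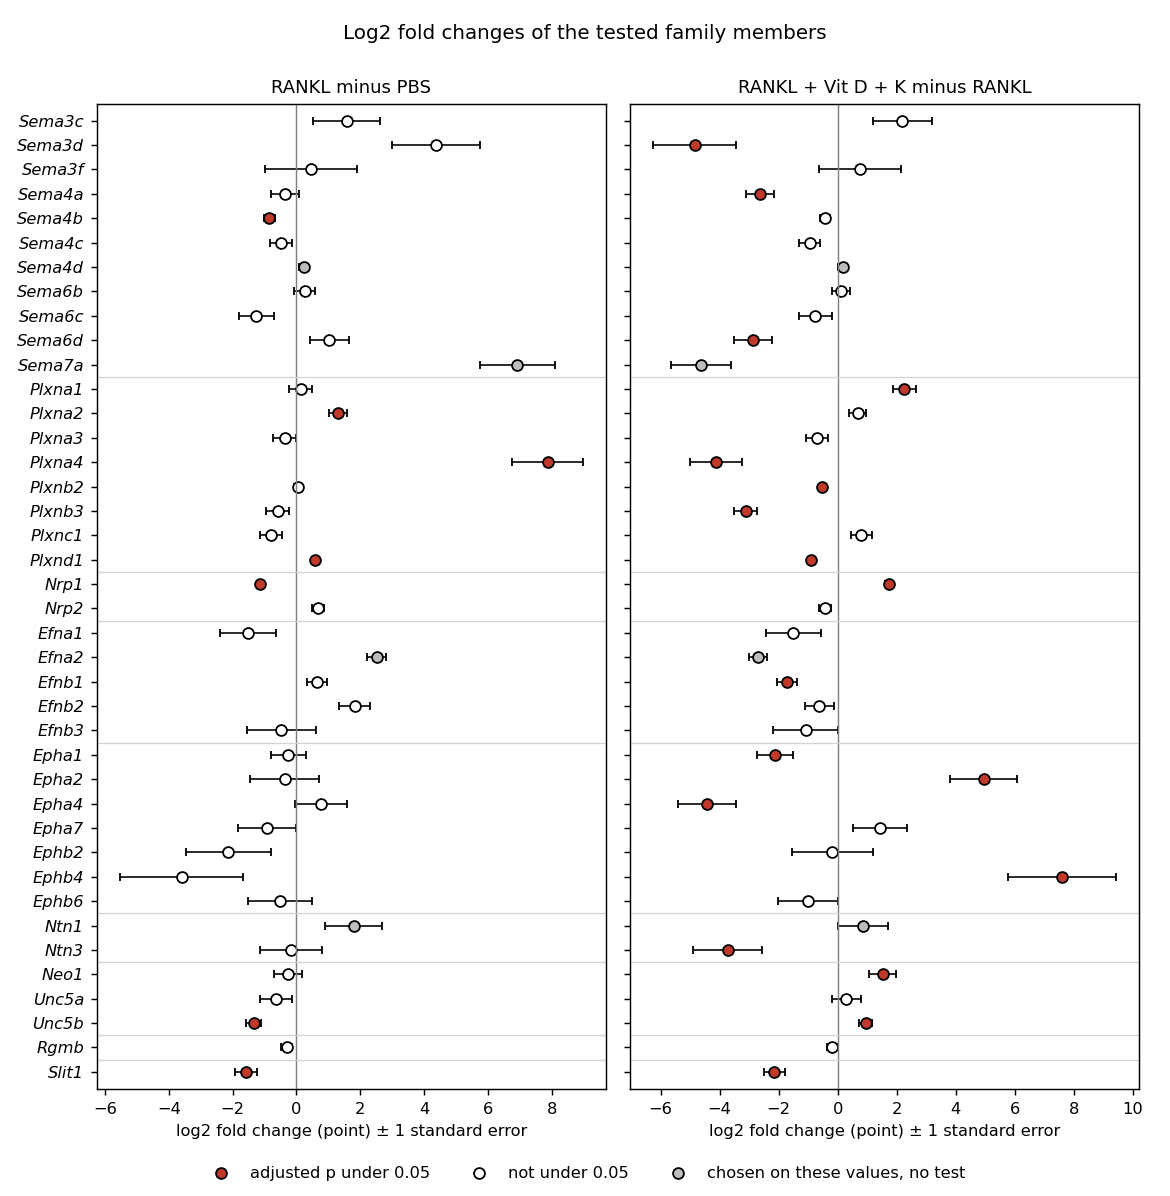
Log2 fold change with its standard error for each of the 40 tested family members (rows, grouped by family), RANKL against PBS on the left and RANKL + Vit D + K against RANKL on the right. Red points passed an adjusted p of 0.05 by edgeR's quasi-likelihood test, white points did not (Ephb4 and Sema3d had enough counts for a test only through 1 group), grey points are the 4 genes chosen on these values and carry no test, and the panels share the 3 RANKL libraries.

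Positions are those of the deposited table on GRCm38. Among the semaphorins, Sema7a (ENSMUSG00000038264, chr9:57940112-57962865), a membrane-anchored ligand of plexin C1 and of beta-1 integrins, was nearly absent without RANKL. Its counts were 4, 4 and 0 in PBS, 358, 526 and 242 in RANKL, and 12, 30 and 0 in RANKL + Vit D + K, that is 0.94 to 2.13 FPKM in RANKL and at most 0.118 in the other groups. All RANKL libraries lay above all others. The fitted log2 fold change was 6.92 ± 1.18 (SE) for RANKL against PBS and -4.63 ± 1.01 for the vitamins against RANKL, or -5.68 without vitamin replicate 2. The size for RANKL against PBS was 6.42 to 7.39 with 1 library left out and 1.28 by limma on log2(FPKM + 1). Against PBS the vitamins stood at 2.29, which became 1.24 without vitamin replicate 2 and 2.91 without vitamin replicate 3.

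Sema4d (ENSMUSG00000021451, chr13:51685529-51793673), the transmembrane ligand of plexin B1, was the most abundant semaphorin. Its FPKM was 64.2, 47.5 and 60.5 in PBS, 73.9, 74.5 and 72.6 in RANKL, and 72.3, 71.1 and 80.0 in RANKL + Vit D + K. The PBS libraries lay below all others, while the RANKL and vitamin libraries overlapped. The log2 fold change was 0.23 ± 0.147 (SE) for RANKL against PBS and 0.17 ± 0.146 for the vitamins against RANKL. For the vitamins against PBS it was 0.40 ± 0.147.

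Sema4a (ENSMUSG00000028064, chr3:88435959-88461182), a transmembrane semaphorin known from immune cells, was the abundant semaphorin that fell with the vitamins. Its FPKM was 50.4, 31.8 and 41.9 in PBS, 41.6, 23.4 and 40.0 in RANKL, and 2.26, 9.99 and 3.91 in RANKL + Vit D + K. Every vitamin library lay below every other library. Against RANKL it fell to a log2 fold change of -2.62 ± 0.47 (SE, edgeR adjusted p = 0.00413), and -3.30 without vitamin replicate 2, the highest of its group.

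Sema6d, a ligand of plexin A1, had 203, 218 and 182 counts in RANKL and 14, 11 and 48 with the vitamins, with PBS at 84, 144 and 41. It fell by 2.86 on the log2 scale against RANKL (SE 0.65, edgeR adjusted p = 0.0105), or by 3.86 without vitamin replicate 3. Sema3d, a secreted ligand of neuropilins, had 89, 88 and 14 counts in RANKL, 0, 4 and 4 in PBS and 0, 6 and 0 with the vitamins. It had enough counts for a test only through the RANKL libraries, where it is high, so the values stand as a description. The log2 fold change of the vitamins against RANKL was -4.84 with all libraries and -8.88 without vitamin replicate 2, the one vitamin library with counts.

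Sema4b, another transmembrane semaphorin, stepped down from PBS to RANKL. Its FPKM was 4.35, 3.38 and 4.83 in PBS, 2.55, 2.34 and 2.72 in RANKL and 1.53, 2.12 and 1.5 with the vitamins, with no overlap between any groups. RANKL lowered it by a log2 fold change of -0.85 ± 0.182 (SE, edgeR adjusted p = 0.0402), a call that the replicate block ends (adjusted p = 0.0501), as does leaving out any 1 of the 6 libraries but PBS replicate 2 (adjusted p = 0.0762 to 0.193). Against PBS the vitamin group was lower for Sema4b (-1.28), Sema4c (-1.45), Sema6c (-2.02) and Sema6d (-1.83) as well as Sema4a (-2.98, or -3.66 without vitamin replicate 2), and higher for the secreted Sema3c (3.76). Sema3c had 0, 4 and 33 counts in PBS and 186, 191 and 132 with the vitamins, and its log2 fold change was 6.40 without PBS replicate 3, while its call was lost without PBS replicate 2 (edgeR adjusted p = 0.0704). The Sema4c call was lost without PBS replicate 3 (adjusted p = 0.0515), and the Sema6c call without PBS replicate 1, PBS replicate 3 or vitamin replicate 1 (0.0696, 0.0638 and 0.0562). The call of Sema6d against PBS (edgeR adjusted p = 0.0445) was lost without PBS replicate 1 (adjusted p = 0.0931), PBS replicate 2 (0.162), vitamin replicate 1 (0.128) or vitamin replicate 2 (0.0778), and its log2 fold change was -2.77 without vitamin replicate 3. Sema3f and Sema6b were not called in any comparison.

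Of the plexins, the receptors of the semaphorins, Plxna4 (ENSMUSG00000029765, chr6:32144268-32588192) was listed with 10, 0 and 0 counts in PBS, 799, 1375 and 553 in RANKL, and 21, 99 and 27 in RANKL + Vit D + K. The RANKL libraries lay far above both other groups, and the vitamin libraries lay above PBS. RANKL raised it by 7.87 ± 1.11 (SE) on the log2 scale (edgeR adjusted p = 0.00859). That size rests on PBS replicate 1, without which it was 12.75 against libraries at 0, and on the scale, since limma on log2(FPKM + 1) gave 0.86 with the call kept. The vitamins lowered it against RANKL by a log2 fold change of -4.12 ± 0.873 (edgeR adjusted p = 0.0079), or -4.99 without vitamin replicate 2. Against PBS the vitamin group was higher by 3.76 (adjusted p = 0.0187), by 8.63 without PBS replicate 1 and by 2.88 without vitamin replicate 2, and the call was lost without PBS replicate 2 or 3 (adjusted p = 0.0504 and 0.0549). The antisense gene Plxna4os1 overlaps it on the other strand by 4504 bases, with 63, 68 and 73 counts in PBS, 6, 19 and 61 in RANKL and 0 in every vitamin library. It was at least 8.55-fold lower with the vitamins than with RANKL and at least 22.5-fold lower than in PBS, against a floor of 3 counts per library. The bound against RANKL rests on RANKL replicate 3, without which it was 3.65-fold. The counting is not stated to use the strand, so reads in the overlap cannot be told apart.

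Plxnd1, the receptor of Sema3e, was highest in the RANKL group. Its FPKM was 69.2, 69.8 and 63.2 in PBS, 111.1, 111.1 and 108.5 in RANKL and 45.3, 65.8 and 51.0 with the vitamins. RANKL lay above every other library. It rose by 0.59 ± 0.108 (SE) on the log2 scale with RANKL (edgeR adjusted p = 0.022) and fell by 0.89 with the vitamins (SE 0.108, adjusted p = 0.00092). The call with RANKL was lost in each of the 6 fits without 1 library (adjusted p = 0.0525 to 0.0893), and the one with the vitamins against RANKL was kept in all 6. Against PBS the vitamin group was lower (-0.31, edgeR adjusted p = 0.0453). That call was lost without any 1 of the 6 libraries but vitamin replicate 2 (adjusted p = 0.122 to 0.216). Plxnb2, a receptor of class 4 semaphorins, was not called with RANKL and fell by 0.52 with the vitamins (SE 0.103, adjusted p = 0.00634), from 134.1, 123.6 and 126.8 FPKM to 71.1, 91.7 and 81.5.

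Plxna1 (ENSMUSG00000030084, chr6:89316314-89362620), which pairs with the TREM2 and DAP12 (Tyrobp) signalling complex in osteoclasts, was the plexin the vitamins raised. Its FPKM was 51.9, 42.9 and 53.5 in PBS, 58.4, 58.9 and 60.0 in RANKL, and 337.5, 116.0 and 293.7 in RANKL + Vit D + K. The vitamin libraries all lay above the rest, with replicate 2 well below the other 2. It rose by 2.26 ± 0.376 on the log2 scale against RANKL (SE, edgeR adjusted p = 0.0031). The summed level of the 9 plexins was 315.1 to 336.8 FPKM in RANKL and 505.1, 297.9 and 477.5 with the vitamins, with replicate 2 again the lowest.

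Plxna2 rose with RANKL, from 0.788, 0.727 and 1.01 FPKM in PBS to 2.12, 2.55 and 2.15 (log2 fold change 1.3 ± 0.285, edgeR adjusted p = 0.0434), and stood at 3.34, 2.0 and 4.24 with the vitamins, overlapping RANKL. Its call with RANKL was lost in each of the 6 fits without 1 library (adjusted p = 0.0869 to 0.14). Plxnb3, a receptor of Sema5a, fell from 1.23, 0.711 and 1.15 FPKM in RANKL to 0.0578, 0.151 and 0.114 with the vitamins (-3.12 ± 0.396, edgeR adjusted p = 0.00112). Plxna3 was called lower with the vitamins against PBS (-1.07, edgeR adjusted p = 0.0446), and that call was lost without any 1 of the 6 libraries but vitamin replicate 2 (adjusted p = 0.0635 to 0.161). Against RANKL its log2 fold change was -0.70 and did not pass (edgeR adjusted p = 0.173). Plxnc1, the receptor of Sema7a, was not called, with 40.1, 39.7 and 41.4 FPKM in PBS, 28.6, 16.7 and 29.5 in RANKL and 47.6, 21.9 and 46.8 with the vitamins. The second library of both RANKL groups was the low one for Plxnc1.

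Of the neuropilins, co-receptors of secreted semaphorins and of VEGF, Nrp1 (ENSMUSG00000025810, chr8:128358604-128462081) fell with RANKL and rose with the vitamins. Its FPKM was 23.9, 22.9 and 20.8 in PBS, 11.7, 11.9 and 10.2 in RANKL, and 28.0, 37.1 and 35.7 in RANKL + Vit D + K, with no overlap between any groups. Nrp1 had a log2 fold change of -1.13 ± 0.112 (SE, edgeR adjusted p = 0.00181) for RANKL against PBS, 1.72 ± 0.114 (adjusted p = 0.000158) for the vitamins against RANKL and 0.59 ± 0.111 (adjusted p = 0.00334) against PBS. All 3 calls were kept in every one of the 17 alternatives. The endothelial receptor Kdr, a VEGF receptor that works with Nrp1, was 0.664, 0.476 and 0.749 FPKM in RANKL and 3.07, 1.0 and 2.65 with the vitamins, and the 6 endothelial markers summed to 3.89 to 4.4 and 6.09 to 12.1 FPKM. Of these markers Kdr and Vwf were called higher with the vitamins, Pecam1, Cdh5 and Tek were not called and Emcn was at 0. Their part in the Nrp1 result was not tested. Nrp2 was not called, at 43.9, 45.4 and 43.5 FPKM in PBS, 74.0, 94.5 and 63.2 in RANKL and 35.8, 71.3 and 49.9 with the vitamins.

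**Figure D3:**
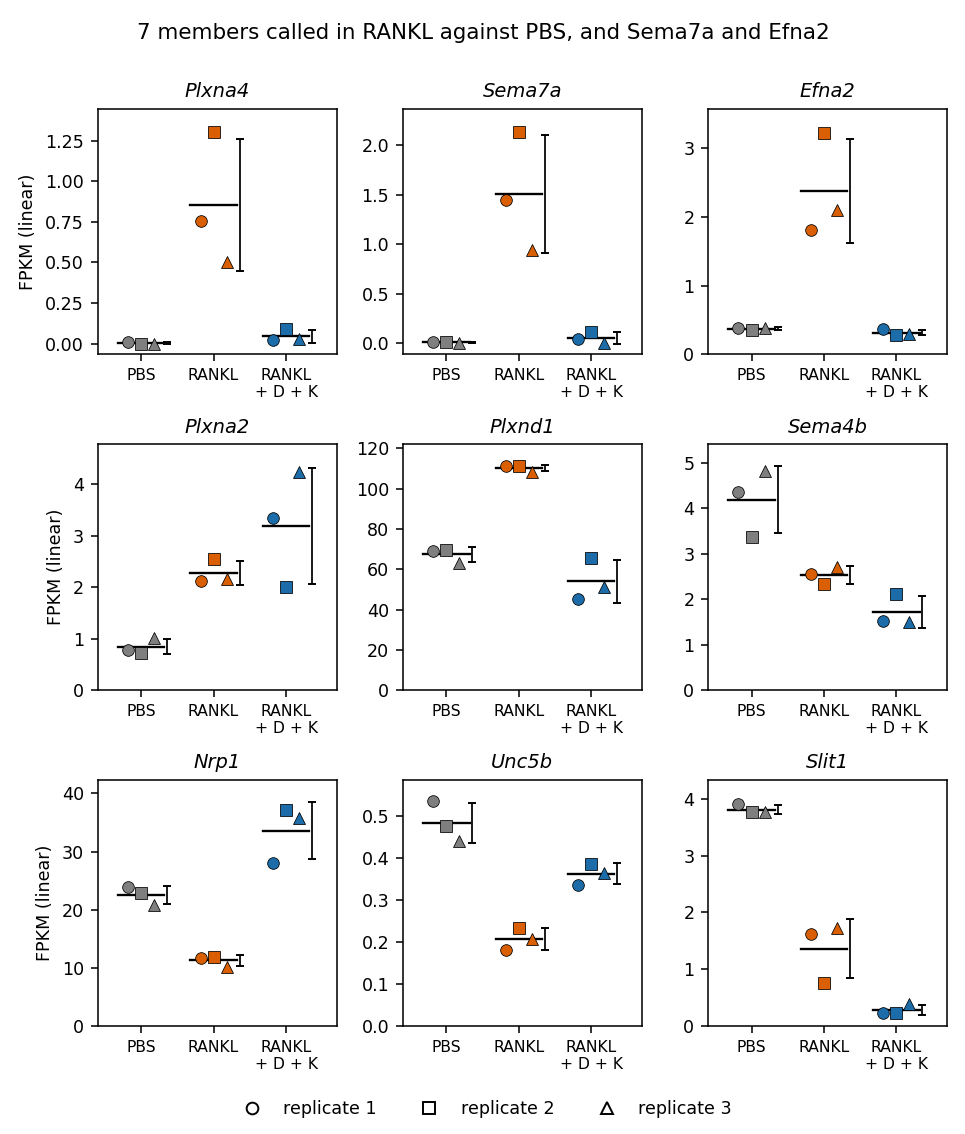
FPKM (linear axes) of the 7 members called in RANKL against PBS and of Sema7a and Efna2, which carry no test, in each of the 9 libraries, with the group mean (line) and SD (bar, n = 3). In the first 5 panels (Plxna4, Sema7a, Efna2, Plxna2, Plxnd1) RANKL lies above PBS, and in Sema4b, Nrp1, Unc5b and Slit1 it lies below.

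The sequences before the RefSeq start sites (GRCm38.p6, 250 bases, written 5′ to 3′ on the gene's strand) are shown for Sema7a and Efna2 and for the 3 members with an entry that were called both with RANKL against PBS and with the vitamins against RANKL, so that the DNA of genes with like and with unlike responses can be read side by side. Capitals mark matches, on either strand, to GAGGAA (PU.1, the macrophage factor) or GGAAAA (NFAT, the osteoclast factor, read here as its reverse complement). Sema7a lies at chr9:57939862-57940111 on the plus strand, Efna2 at chr10:80179232-80179481 on the plus strand, Plxnd1 at chr6:115995006-115995255 on the minus strand, Nrp1 at chr8:128358823-128359072 on the plus strand and Unc5b at chr10:60831582-60831831 on the minus strand.
Sema7a: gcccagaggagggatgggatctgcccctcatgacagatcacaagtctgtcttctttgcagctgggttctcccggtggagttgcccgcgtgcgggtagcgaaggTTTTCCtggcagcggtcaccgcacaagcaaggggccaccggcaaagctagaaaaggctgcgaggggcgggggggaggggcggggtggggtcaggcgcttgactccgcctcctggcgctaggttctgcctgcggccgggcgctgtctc
Efna2: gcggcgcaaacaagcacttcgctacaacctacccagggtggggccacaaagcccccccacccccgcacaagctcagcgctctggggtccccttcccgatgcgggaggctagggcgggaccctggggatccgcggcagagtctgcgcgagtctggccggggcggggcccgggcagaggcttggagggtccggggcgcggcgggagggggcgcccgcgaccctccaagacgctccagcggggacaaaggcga
Plxnd1: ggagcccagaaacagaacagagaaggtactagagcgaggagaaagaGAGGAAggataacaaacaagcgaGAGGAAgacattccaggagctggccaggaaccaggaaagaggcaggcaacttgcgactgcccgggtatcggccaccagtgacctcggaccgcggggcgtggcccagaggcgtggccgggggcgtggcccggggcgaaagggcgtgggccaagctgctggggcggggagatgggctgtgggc
Nrp1: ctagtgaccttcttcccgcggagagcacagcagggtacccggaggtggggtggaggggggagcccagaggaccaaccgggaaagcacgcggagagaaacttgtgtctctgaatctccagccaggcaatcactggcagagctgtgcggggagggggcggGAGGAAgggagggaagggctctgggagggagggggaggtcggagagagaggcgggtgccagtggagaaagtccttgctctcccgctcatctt
Unc5b: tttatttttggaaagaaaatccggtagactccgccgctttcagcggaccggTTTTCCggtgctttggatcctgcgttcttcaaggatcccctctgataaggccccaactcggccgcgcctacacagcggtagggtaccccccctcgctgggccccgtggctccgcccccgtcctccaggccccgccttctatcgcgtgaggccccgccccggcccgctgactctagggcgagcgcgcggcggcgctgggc

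In these stretches GGAAAA was found once in Sema7a, from 147 bases before the start, and once in Unc5b, from 199 bases before it, both on the opposite strand. GAGGAA was found in Plxnd1, from 204 and 181 bases before the start, and in Nrp1, from 92. The letters TGANTCA (AP-1), GGGNNTTCC (NF-kB), AGTTCA (the vitamin D receptor) and CACGTG (MITF) were in none of the 5. Over all 32851 RefSeq windows, cut to the same 250 bases before the start, 20.4% hold GGAAAA, 23.3% GAGGAA, 6.75% TGANTCA, 4.98% GGGNNTTCC, 11.8% AGTTCA and 6.02% CACGTG. The members have 79 windows over 61 genes, of which 10, 22, 3, 5, 4 and 4 hold these letters in the same order. A match is only a match of letters. The Nrp1 stretch lies inside the span that the deposited table gives for the gene, which starts at 128358604.

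Of the ephrins, the membrane-bound ligands of Eph receptors, Efna2 (ephrin-A2, ENSMUSG00000003070, chr10:80179482-80190010) was higher in every RANKL library than in any other. Its counts were 61, 57 and 63 in PBS, 289, 514 and 348 in RANKL and 59, 48 and 48 in RANKL + Vit D + K, that is 1.81, 3.23 and 2.1 FPKM in RANKL and 0.29 to 0.392 in the other groups. PBS and vitamin libraries overlapped. The log2 fold change was 2.51 ± 0.298 (SE) for RANKL against PBS, -2.71 ± 0.301 for the vitamins against RANKL and -0.21 ± 0.29 for the vitamins against PBS.

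Efnb1 (ephrin-B1) had 158, 153 and 149 counts in PBS, 266, 276 and 253 in RANKL and 40, 120 and 65 with the vitamins, with no overlap between any groups. It fell with the vitamins by 1.71 on the log2 scale against RANKL (SE 0.331, edgeR adjusted p = 0.00556), while RANKL against PBS did not pass. Its call for the vitamins against PBS (-1.07, edgeR adjusted p = 0.0278) was lost without any 1 of the 6 libraries but vitamin replicate 2 (0.0707 to 0.0988). Efnb2 (ephrin-B2), with 27, 29 and 40 counts in PBS, 134, 140 and 103 in RANKL and 104, 32 and 77 with the vitamins, was not called in any comparison, although the PBS and RANKL libraries did not overlap. Efna1 was lower with the vitamins than in PBS (-3.01, edgeR adjusted p = 0.0308), at 13, 0 and 8 counts against 74, 55 and 51. Its log2 fold change was -2.41 without vitamin replicate 2, the library at 0, and -3.81 without vitamin replicate 1, and the call was lost without any 1 of the other 4 libraries (adjusted p = 0.0615 to 0.0904). Efnb3 was not called.

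The Eph receptors were low throughout, with a summed level of 0.239 to 1.67 FPKM. Epha2 (ENSMUSG00000006445, chr4:141301240-141329384), a receptor of ephrin-A ligands, had 11, 10 and 9 counts in PBS, 0, 13 and 13 in RANKL and 30, 523 and 214 in RANKL + Vit D + K. All 3 vitamin libraries lay above the rest, with a spread from 30 to 523. It rose by 4.94 ± 1.13 (SE) on the log2 scale against RANKL (edgeR adjusted p = 0.0108), and by 4.03 without vitamin replicate 2. By limma on log2(FPKM + 1) the rise was 0.67 and the call was lost (limma adjusted p = 0.0548). Ephb4, the receptor of ephrin-B2, had 34, 20 and 14 counts with the vitamins, 0 in every RANKL library and 0, 0 and 4 in PBS. It was at least 8.54-fold higher with the vitamins than in RANKL, against a floor of 3 counts per library. Only the vitamin libraries, where it is high, gave it enough counts for a test, so this too is a description.

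Epha4 and Epha1, both receptors of ephrin-A ligands, fell with the vitamins. Epha4 had 101, 54 and 49 counts in RANKL, 65, 15 and 28 in PBS and 4, 0 and 4 with the vitamins (-4.43 ± 0.987 on the log2 scale against RANKL, edgeR adjusted p = 0.0097, and -3.82 without vitamin replicate 2). Epha1 had 37, 21 and 30 counts in PBS, 27, 22 and 33 in RANKL and 5, 9 and 3 with the vitamins (-2.13 ± 0.601, edgeR adjusted p = 0.0243), and its call was lost without RANKL replicate 1 or 3 or vitamin replicate 1 or 3 (0.068 to 0.0799). Epha1 overlaps Zyx on the opposite strand by 1727 bases, and Zyx had 4157 to 9599 counts, so its few counts are uncertain. The Ephb4 span overlaps Zan on the opposite strand by 33 bases. Epha7, Ephb2 and Ephb6 were not called in any comparison.

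**Figure D4:**
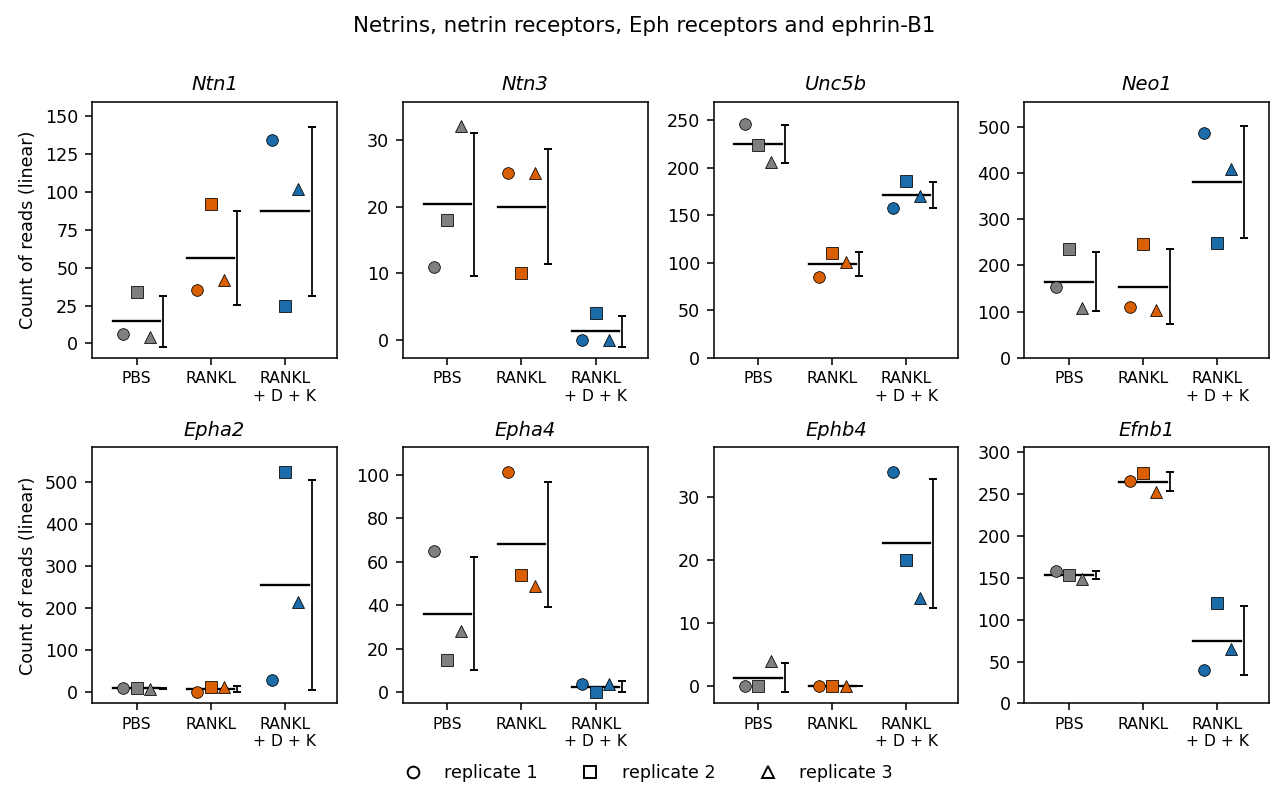
Counts of reads (linear axes) of 2 netrins, 2 netrin receptors, 3 Eph receptors and ephrin-B1 in each of the 9 libraries, with the group mean (line) and SD (bar, n = 3). For Ntn1 the 3 vitamin libraries read 134, 25 and 102, on both sides of the RANKL libraries, and for Ephb4 the 3 RANKL libraries are at 0.

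Netrin-1 mRNA was scarce. RT-qPCR primers for it lie in the coding part of exon 2 of 7 of transcript ENSMUST00000021284, on the minus strand of chromosome 11 (GRCm38), and are shown since they mark the stretch of this gene that was amplified outside the sequencing. The forward primer lies at chr11:68385694-68385713 and the reverse primer at chr11:68385565-68385584, and both matched transcripts of 1 gene only, Ntn1.
forward: gtcgctcggcaagaagtttg
reverse: tgtacattttgcggcactgc

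The counts of Ntn1 (ENSMUSG00000020902, chr11:68209364-68400823) were 6, 34 and 4 in PBS, 35, 92 and 42 in RANKL and 134, 25 and 102 in RANKL + Vit D + K, which is 0.284 FPKM at most. PBS replicate 2 and RANKL replicate 1 were within 1 count of each other, and after TMM scaling the PBS and RANKL libraries overlapped. With the vitamins, 2 libraries lay above all RANKL libraries and replicate 2 lay below them all. The log2 fold change was 1.79 ± 0.901 (SE) for RANKL against PBS and 0.86 ± 0.855 for the vitamins against RANKL. With 1 library left out, the value for RANKL against PBS ran from 1.29 (without RANKL replicate 2) to 3.34 (without PBS replicate 2), and that for the vitamins against RANKL from 0.34 (without vitamin replicate 1) to 1.36 (without RANKL replicate 2). Against PBS the vitamins stood at 2.65 ± 0.92, and at 2.19 (without vitamin replicate 1) to 4.18 (without PBS replicate 2).

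Ntn3, another netrin, had 11, 18 and 32 counts in PBS, 25, 10 and 25 in RANKL and 0, 4 and 0 with the vitamins, a fall of 3.72 on the log2 scale against RANKL (SE 1.17, edgeR adjusted p = 0.0366), or of 7.23 without vitamin replicate 2, the one vitamin library with counts. The call was lost without RANKL replicate 1 or 3 or vitamin replicate 1 or 3 (adjusted p = 0.088 to 0.0967). The span of Ntn3 overlaps Tbc1d24 on the same strand by 1715 bases, a gene of 2548 to 4623 counts, so the Ntn3 counts are uncertain. Netrin receptors were also low. Unc5b, a dependence receptor for netrin-1, had 246, 224 and 206 counts in PBS, 85, 110 and 101 in RANKL and 158, 186 and 170 with the vitamins, with no overlap between any groups. It fell by 1.34 on the log2 scale with RANKL (SE 0.226, edgeR adjusted p = 0.0166) and rose by 0.95 with the vitamins (SE 0.225, adjusted p = 0.0123). The call with RANKL was lost in each of the 6 fits without 1 library (adjusted p = 0.0506 to 0.0916), and the one with the vitamins without RANKL replicate 1 (0.0531).

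Neo1 (neogenin, a receptor of netrins and of repulsive guidance molecules) had 110, 247 and 103 counts in RANKL, 153, 235 and 107 in PBS and 486, 249 and 408 with the vitamins. It rose by 1.52 ± 0.453 (SE) on the log2 scale against RANKL (edgeR adjusted p = 0.0302), although replicate 2 of the vitamin group (0.371 FPKM) was level with replicate 2 of RANKL (0.376 FPKM) and above it in counts and after TMM scaling. The call was lost without RANKL replicate 1 or 3 or vitamin replicate 1 or 3 (adjusted p = 0.0876 to 0.106). Unc5a, which overlaps the far more abundant Hk3 by 34 bases, was not called. Rgmb, a BMP co-receptor that binds neogenin, was 2.28, 2.58 and 2.65 FPKM in PBS and 1.83, 1.62 and 1.68 with the vitamins (-0.52, edgeR adjusted p = 0.0424), a call lost without any 1 of the 6 libraries but vitamin replicate 1 (0.0751 to 0.147).

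Slit1 (ENSMUSG00000025020, chr19:41600257-41743665), a secreted ligand of the Robo receptors, was the one Slit with enough counts, and stepped down in both comparisons. Its FPKM was 3.9, 3.76 and 3.76 in PBS, 1.61, 0.756 and 1.72 in RANKL and 0.227, 0.221 and 0.383 in RANKL + Vit D + K, with no overlap between any groups. The log2 fold change was -1.58 ± 0.351 (SE, edgeR adjusted p = 0.0446) for RANKL against PBS and -2.15 ± 0.363 (adjusted p = 0.00328) for the vitamins against RANKL. Its first call was lost in each of the 6 fits without 1 library (adjusted p = 0.0682 to 0.145), and its second was kept in all 6. Unc50, which shares only letters with the receptors, was lower with the vitamins than in PBS (-0.59, edgeR adjusted p = 0.00806).

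Of the 7 members called with RANKL, Nrp1 and Plxna4 were called in all 6 fits without 1 library, Sema4b in 1 and Unc5b, Slit1, Plxna2 and Plxnd1 in none. Those fits hold fewer samples, and called 0.565% to 1.38% of all genes higher and 0.176% to 0.576% lower. The log2 fold changes of the lost calls kept their direction, at -1.40 to -1.21 for Unc5b, -1.81 to -1.27 for Slit1, -0.94 to -0.66 for Sema4b, 1.25 to 1.52 for Plxna2 and 0.57 to 0.66 for Plxnd1. Of the 19 calls of the vitamins against RANKL, 13 were kept in every fit of this kind, and of the 24 against PBS, 11. Among the 19 are Ephb4 and Sema3d, and among the 24 are Ntn3 and Plxna4os1, whose calls are no support for a difference. Plxna4os1 is also among the 11. All 19 were still called without vitamin replicate 2.

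The molecules that carry guidance signals inside the cell were measured too, from lists of genes that are not members. The shares of all genes tested are 2.35% higher and 1.26% lower with RANKL, and 16.4% higher and 17.2% lower with the vitamins against RANKL, 19.8% higher and 21.0% lower with the vitamins against PBS, and the counts below stand beside these. Of 46 tested intracellular mediators, RANKL raised 6 and the vitamins raised 12 and lowered 11 against RANKL, and 13 were higher and 9 lower in the vitamin group than in PBS. Src, a tyrosine kinase that osteoclasts need to resorb bone, was 0.6, 0.444 and 0.595 FPKM in PBS, 13.3, 18.9 and 10.9 in RANKL and 3.2, 2.53 and 2.19 with the vitamins. Its log2 fold change was 4.57 with RANKL (edgeR adjusted p = 0.00013) and -2.27 with the vitamins (adjusted p = 0.000613). The actin-binding protein Ablim1 had 11, 0 and 4 counts in PBS, 353, 597 and 195 in RANKL and 0, 9 and 11 with the vitamins. Dpysl2, which relays semaphorin signals to microtubules, fell with the vitamins (-2.27, edgeR adjusted p = 0.00826), while the kinase Fyn rose (2.04, adjusted p = 0.000665).

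Beside the same shares (2.35% for RANKL, 16.4% and 17.2% for the vitamins against RANKL, 19.8% and 21.0% against PBS), of 15 tested partners of semaphorins, netrins and neuropilins RANKL raised 5 and the vitamins raised 3 and lowered 5 against RANKL, and 6 were higher and 3 lower in the vitamin group than in PBS. Vegfc, a ligand of Nrp2, had 3, 0 and 0 counts in PBS, 256, 881 and 333 in RANKL and 181, 286 and 144 with the vitamins. Vegfa, a ligand of Nrp1, was 10.6, 4.25 and 17.1 FPKM in RANKL and 89.8, 27.4 and 75.3 with the vitamins (2.75 ± 0.64 on the log2 scale, edgeR adjusted p = 0.0114). Flrt2, a ligand of UNC5 receptors, was called higher in both comparisons, at 0.536, 0.294 and 0.315 FPKM in PBS, 1.83, 4.52 and 1.7 in RANKL and 26.7, 10.9 and 20.9 with the vitamins. Of 14 tested other guidance cues, RANKL raised 2 (Rtn4r and Mag), and the vitamins raised 2 (Cxcr4 and Rtn4) and lowered 2 (Ntng2 and Mag) against RANKL. Of 86 tested genes that the table assigns to the axon guidance pathway and that are not members, RANKL raised 7 and lowered 2, and the vitamins raised 22 and lowered 21 against RANKL.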

How the data were processed

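RNA of mouse bone marrow-derived macrophages was sequenced in 9 libraries, 3 in each of 3 groups. The authors deposited 1 table with whole-number counts of reads per gene, not normalized, and with FPKM, scaled by the authors to transcript length and library size. The submitters' processing notes name cutadapt 1.9, HISAT2 2.0.4, StringTie 1.3.4d and edgeR. They also name a human build (hg38), whereas 28294 of the table's 28379 identifiers are in mouse GENCODE M21 (GRCm38), 25596 of them with the same coordinates. Whether counting used the strand is not stated.

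The counts were tested with edgeR 4.0.16 in R 4.3.3: filterByExpr left 17002 genes, libraries were scaled by TMM, and all 9 libraries entered 1 quasi-likelihood model, with Benjamini-Hochberg adjustment over all genes tested and a threshold of 0.05 for a call. The standard error is the log2 fold change divided by the square root of F. The members, lists and named genes were chosen with earlier results of these data known, and counts of calls leave out the 4 genes put forward. Named genes are the 4 put forward, each member called in a comparison, the member with the highest mean FPKM in each family and, from the lists, those with the largest called changes. Efnb2, Plxnc1, Flrt2 and Kdr were named after their values were seen.

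Depth was 65915112 to 68229647 counts per library. A floor of 3 counts is at most 4.55e-06% of a library and covers counting error only. Counts of 4 (7347 gene and library pairs) were more frequent than counts of 3 (4268) or 5 (2360), and 1 count may not stand for 1 independent read. Same-numbered PBS and RANKL libraries deviated together weakly (correlations of 0.101 to 0.19, against -0.13 to 0.00351 for unlike numbers). The labels give no source of a pairing, and these correlations cannot establish one. For the vitamin group the correlations were -0.0276 to 0.0144 with PBS and 0.000148 to 0.097 with RANKL. Alternatives were DESeq2, limma on log2(FPKM + pseudocount), size factors by the median of ratios, voom with sample weights, other filters, only the 2 groups compared, a replicate block and each library left out. T cell markers were not analysed here.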

Additional observations from a re-analysis of the deposited data

How the results depend on the processing

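The counts leave out the 4 genes put forward, and the share of all genes called the same way stands in brackets. Ephb4 and Sema3d against RANKL, and Ntn3 and Plxna4os1 against PBS, remain in these counts, although their calls are no support for a difference. For RANKL against PBS, the 3 higher calls (2.35%) became 6 by DESeq2 (6.18%), 7 with sample quality weights (8.88%), 6 with only the 2 groups compared (5.96%) and 5 without the second RANKL and second vitamin libraries together (5.05%, a setting chosen after the data were seen), and 1 in each fit with 1 library left out (0.565% to 1.38%). The 4 lower calls (1.26%) became 2 with no filter on low counts (0.453%), 1 by limma on log2(FPKM + 0.1) with no filter (0.453%) and 7 with quality weights (8.8%), and 1 to 2 with 1 library left out (0.176% to 0.576%). For the vitamins against RANKL, the 6 higher calls (16.4%) became 3 to 8 with 1 library left out (9.39% to 22.2%), and the 13 lower calls (17.2%) became 8 with at least 1 CPM in 3 libraries (22.0%) and 10 to 16 with 1 library left out (9.85% to 26.5%). For the vitamins against PBS, the 6 higher calls (19.8%) became 5 to 8 (14.8% to 24.3%) and the 18 lower calls (21.0%) became 9 to 16 (13.8% to 27.8%) with 1 library left out. The other settings kept each count within 1.5 times. The cause was not tested, other than that fits without a library hold fewer samples.

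With the replicate block, 6 of the 7 calls of RANKL against PBS were kept, and Sema4b was lost (adjusted p = 0.0501). The vitamins against RANKL gave 19 calls with the block, without Epha1 and Ntn3 and with Plxnc1 and Sema4c, and the vitamins against PBS kept 20 of 24 calls, without Ntn3, Plxna3, Plxnd1 and Sema6d. Whether the replicate number pairs any of the libraries is not stated. Over 50 results of called members and 836 values, 681 kept their direction and the call and 155 lost the call. Of 204 values of the genes put forward, which carry no test, 176 stayed within 1 standard error of the main value and 27 moved further. The direction turned once, for Sema7a in the vitamins against PBS under quality weights (-1.26, against 2.29), where both groups hold at most 30 counts. Over the settings Ntn1 ran from 0.12 to 3.34 for RANKL against PBS, and Sema7a from -8.37 to -1.22 for the vitamins against RANKL. By limma on log2(FPKM + 0.1) the median of all genes in the vitamins against RANKL was -0.16, against -0.04 by edgeR, and fold changes there are relative to it. Low counts limit many members, Ntn1, Ntn3, Ephb4 and Epha1 among them.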
